A study of Mus musculus with 10 samples.

Results

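Bidirectional promoter peaks are the REST ChIP-seq peaks of 3xTg mouse cortex that lay at gene starts on both DNA strands. They were chosen by their call in the 3xTg peak list, by the position of the summit, which had to lie within 1 kb of a curated RefSeq transcript start, and by the span, which with 1 kb added on each side had to hold starts on both strands. Of 5077 peaks off chromosome Y, 326 (6.42%, 95% Wilson confidence interval 5.78 to 7.13) met this rule. A further 1230 peaks lay at starts on 1 strand only and are called unidirectional promoter peaks here, and 3521 had their summit more than 1 kb from any start. Each bidirectional peak was then marked by whether it overlapped a peak of the WT list by at least 1 base, and 175 did while 151 did not.

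REST ChIP-seq was performed on bulk cortex of 11-month-old female mice. The 3xTg mice, a model of Alzheimer's disease, carry mutant human APP and tau transgenes and a knock-in mutation on a mixed strain background (C57BL/6J with 129Sv/Ev), and the WT mice were littermate controls. Each genotype had 4 ChIP replicates, with the cortices of 4 mice pooled in each, and 1 input library. The authors deposited 1 peak list per genotype that pools the replicates, so each peak has a single value per genotype, no replicate spread, and no test between genotypes was possible from them. In bulk tissue, more cells with REST on a promoter and more REST per cell cannot be told apart, and peak lists hold no cell type markers to check the tissue. Fold enrichment is the pileup at the summit over the local background as MACS gives it, and the depth of the libraries is not given in the files used here.

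REST is a zinc finger repressor that recognizes the RE1 element and recruits corepressor complexes to neuronal genes. A bidirectional promoter is a stretch of DNA from which transcription runs in both directions, most often between the starts of neighboring genes that are arranged head to head. Such promoters are usually rich in CpG and tend to serve housekeeping genes of metabolism, DNA repair and RNA processing, or a coding gene and a long noncoding RNA.

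The DNA between the starts is shown for 7 head-to-head pairs, because it is the stretch that both genes of a pair share and because it differed greatly in composition between members. The first 3 pairs are among the 10 with the highest fold enrichment, the next 3 are among the 5 highest with no WT peak, and the last has the joint lowest fold enrichment of all members. Each name gives the minus-strand gene first. The sequences are the plus strand of mm10 (GRCm38.p6), 5′ to 3′, without the start bases themselves, and none overlaps an exon of a curated transcript. Capitals mark matches on either strand to 7 motifs. The SP/KLF box was searched as GGGCGG. The letters for NF-Y were CCAAT. Factors of the ETS family were represented by CCGGAAG, and the repressor and activator YY1 by ATGGCG. For the respiratory gene regulator NRF1 the letters were GCGCATG. The core of the cyclic AMP response element (CRE) was searched as TGACG, and the TATA box as TATAAA.
Zswim7/Ttc19, chr11:62281396-62281472: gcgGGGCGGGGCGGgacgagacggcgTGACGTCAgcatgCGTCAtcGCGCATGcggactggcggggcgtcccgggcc
Ubxn6/Hdgfl2, chr17:56079334-56079630: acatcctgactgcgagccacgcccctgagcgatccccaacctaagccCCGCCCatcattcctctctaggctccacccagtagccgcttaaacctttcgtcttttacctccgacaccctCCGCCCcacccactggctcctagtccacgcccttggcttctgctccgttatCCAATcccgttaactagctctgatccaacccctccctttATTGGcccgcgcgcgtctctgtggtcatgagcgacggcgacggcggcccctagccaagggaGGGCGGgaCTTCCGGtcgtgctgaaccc
Chpf/Tmem198, chr1:75479472-75479531: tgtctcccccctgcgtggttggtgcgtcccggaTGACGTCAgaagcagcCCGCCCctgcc
Emx2os/Emx2, chr19:59458636-59458689: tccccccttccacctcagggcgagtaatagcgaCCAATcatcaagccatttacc
Rn7sk/C920006O11Rik, chr9:78175634-78175913: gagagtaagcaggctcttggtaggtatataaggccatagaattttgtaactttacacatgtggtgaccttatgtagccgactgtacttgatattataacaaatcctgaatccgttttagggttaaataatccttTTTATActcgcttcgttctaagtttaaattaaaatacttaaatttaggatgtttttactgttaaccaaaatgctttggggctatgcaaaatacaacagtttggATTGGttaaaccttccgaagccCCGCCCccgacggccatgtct
Nt5c3b/Klhl10, chr11:100441809-100441923: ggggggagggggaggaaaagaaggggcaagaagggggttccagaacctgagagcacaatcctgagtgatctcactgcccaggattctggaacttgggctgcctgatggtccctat
Btf3/Gm9828, chr13:98317007-98317115: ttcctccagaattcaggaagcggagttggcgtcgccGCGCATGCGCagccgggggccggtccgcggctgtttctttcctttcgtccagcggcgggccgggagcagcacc

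The 77 bases between Zswim7 and Ttc19 were 77.9% GC and held 14 CpG, 2 SP/KLF boxes and 3 CRE cores, of which a pair on opposite strands formed the palindrome TGACGTCA. The same palindrome stood in the 60 bases between Chpf and Tmem198. The 297 bases between Ubxn6 and Hdgfl2 held 3 SP/KLF boxes, 2 NF-Y boxes and 1 ETS match. At the other extreme, the 115 bases between Nt5c3b and Klhl10 held no CpG and none of the 7 motifs. That stretch lay outside the peak, which ended at chr11:100441146, so it is not DNA under the REST signal. The Zswim7/Ttc19 stretch was inside its peak, but the summit lay 628 bases from the nearest start. Of the 7 stretches, only that between Ubxn6 and Hdgfl2 held the summit of its peak. The 280 bases between Rn7sk and C920006O11Rik were 37.5% GC and held 1 TATA box, and Rn7sk encodes the 7SK RNA, which is made by RNA polymerase III. The NRF1 letters occurred on both strands of 1 palindrome between Btf3 and Gm9828.

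The starts of the nearest opposite-strand pair were head to head at 272 of the 326 peaks (83.4%, 79.0 to 87.1). At the other 54 the minus-strand start lay to the right of the plus-strand start. These pairs are called overlapping here from the order of the starts alone, without a check of transcript lengths. Between head-to-head starts the gap was 224 bases at the median, from 1 to 3047, and the middle 50% of pairs lay between 119 and 432 bases apart. Of the 272 gaps, 49 were up to 100 bases, 128 were over 100 and up to 300 bases, 77 were over 300 and up to 1000 bases and 18 were longer. In the overlapping pairs the starts were 8 to 2717 bases apart. At 287 peaks (88.0%) the span covered both starts of the pair. With 1 kb added on each side, the members held start sites of 662 genes and 325 distinct pairs, since the Negr1 promoter carried 2 peaks. Counts of genes with a start in or at a member use this wider span, so a counted start can lie outside the peak. Negr1 encodes a neuronal adhesion molecule, and its pair with 4930570G19Rik had fold enrichments of 11.2 and 9.67 at the separate peaks, both with a WT peak.

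**Figure D1:**
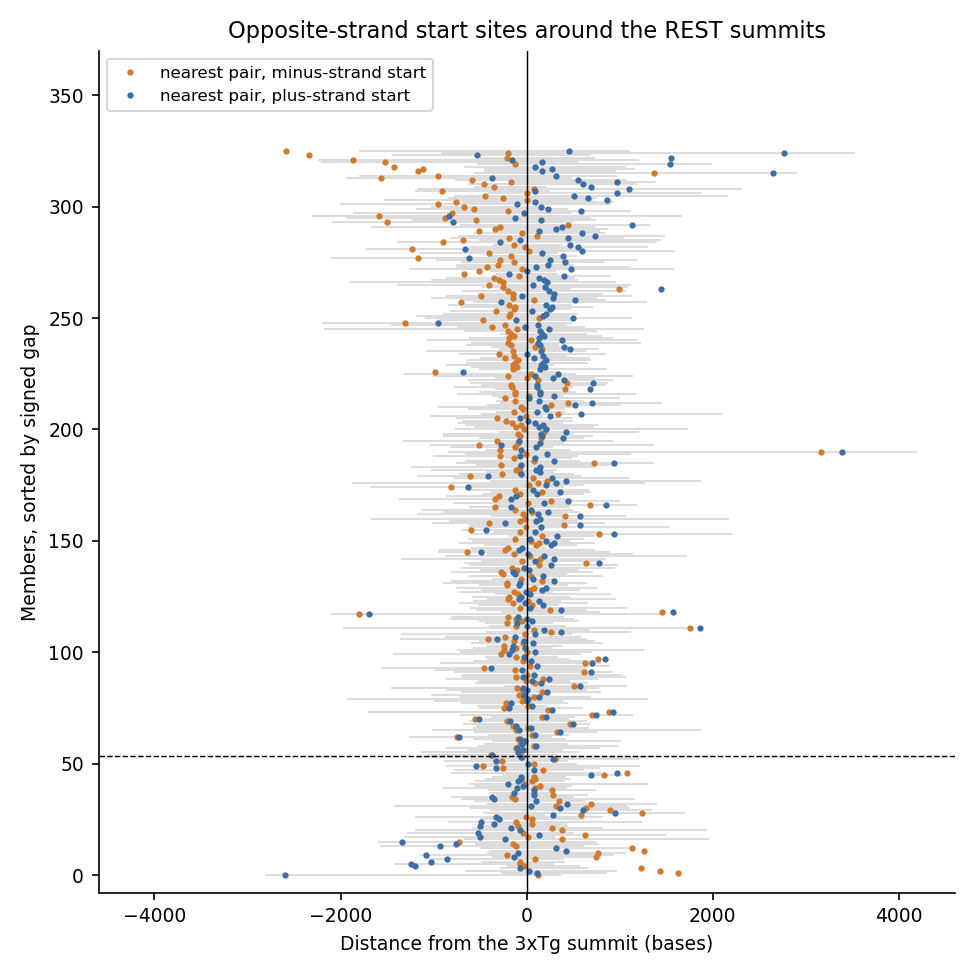
Each row is 1 of the 326 bidirectional promoter peaks, with the distance in bases from its 3xTg summit on the horizontal axis, the peak span as a grey line, the minus-strand start in orange and the plus-strand start in blue. Rows above the dashed line are the 272 head-to-head pairs and rows below it the 54 overlapping pairs, and the summit lay within 100 bases of the nearest start in 160 rows.

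The summit sat close to the starts but not mainly between them. It was within 100 bases of the nearest start at 160 of 326 bidirectional peaks (49.1%, 43.7 to 54.5), against 353 of 1230 unidirectional peaks (28.7%, 26.2 to 31.3). Having starts on both sides gives a bidirectional peak more starts to be near, so this difference follows in part from the rule. Among the 254 head-to-head pairs up to 1 kb apart, the summit lay between the starts at 104 (40.9%, 35.1 to 47.1), past the minus-strand start at 77 and past the plus-strand start at 73. The map of start sites around the summits shows this as starts on both sides of the zero line in some rows and on 1 side in others.

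In 208 members (63.8%) both genes of the nearest pair were protein-coding. In 105 (32.2%) a coding gene was paired with a gene whose curated transcripts were all noncoding, called a noncoding RNA here. In 12 (3.68%) the pair involved the start of a microRNA or other small RNA, which need not be a true transcription start. The remaining member paired noncoding genes. The coding pairs were head to head in 189 of 208 cases, and the pairs with a noncoding RNA in 73 of 105. Fold enrichment was alike in both, with a median of 10.5 (95% order-statistic interval 10.2 to 11.0) for coding pairs and 10.6 (10.2 to 11.4) for pairs with a noncoding RNA. A WT peak overlapped 105 of 208 coding pairs (50.5%, 43.7 to 57.2) and 62 of 105 pairs with a noncoding RNA (59.0%, 49.5 to 68.0), with intervals that overlap. In head-to-head pairs of a coding gene and a noncoding RNA up to 1 kb apart, the summit lay past the noncoding start in 33, past the coding start in 19 and between them in 19. Of the 52 past a start, 63.5% (49.9 to 75.2) were on the noncoding side, an interval that includes equal shares.

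Genes with an opposite-strand neighbor carried REST summits more often than genes without one. Of 2911 protein-coding genes with an opposite-strand start within 1 kb, 498 (17.1%, 15.8 to 18.5) had a 3xTg summit within 1 kb of a start of their own, against 1149 of 18012 other coding genes (6.38%, 6.03 to 6.75). In the WT list the shares were 12.4% and 4.45%. Genes of a pair share a summit, so they are not independent, and the intervals cover counting error only. The promoters differed in composition as well. Among the 16783 coding genes whose promoter is in the RefSeq promoter table of GRCm38, 78.4% of those with an opposite-strand start were CpG-rich (over 50% GC and an observed to expected CpG ratio over 0.6 in 300 bases), against 41.8% of the others. Among CpG-rich promoters the shares with a 3xTg summit were 17.0% (15.4 to 18.8) and 11.9% (11.1 to 12.8), and among the rest 14.3% (11.6 to 17.6) and 3.03% (2.68 to 3.42).

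The bidirectional peaks were of ordinary height and wide. Their fold enrichment had a median of 10.5 (10.4 to 11.0), from 8.52 to 66.5, beside 10.5 for unidirectional promoter peaks, 11.0 for peaks away from starts and 10.8 for the whole list. These heights come from the list that chose the members and are given as a description. The median width was 1446 bases (1387 to 1528), beside 1246 for unidirectional peaks and 819 for peaks away from starts, and 280 of the 326 (85.9%) were wider than the median of all 3xTg peaks, which was 937 bases. A wide span takes in more start sites, so width is in part a product of the rule.

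The highest member was at Tle1, which encodes a Groucho-family corepressor, and the noncoding C630043F03Rik on chromosome 4 (chr4:72198824-72202256), with a fold enrichment of 66.5 in 3xTg and 53.1 in WT. It ranked 3 of all 3xTg peaks and 6 of all WT peaks. Tmem151a/Yif1a followed with 43.0 in 3xTg and 29.3 in WT, and Yif1a encodes a membrane protein of transport between the endoplasmic reticulum and the Golgi. The starts of this pair were 3047 bases apart, the longest gap of the set, with the summit 456 bases from the Yif1a start. Zswim7/Ttc19 had 34.5 in 3xTg and 19.1 in WT, and these genes serve homologous recombination and the assembly of respiratory complex III. Ubxn6/Hdgfl2 had 31.6 and 16.6, and Ubxn6 encodes a cofactor of the ATPase p97. Tbc1d10b/Mylpf had 31.2 and 18.1, and Mylpf encodes a myosin light chain of fast skeletal muscle.

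The next members in order were also in both lists. Mat2a, which makes S-adenosylmethionine, and the noncoding Particl formed an overlapping pair with starts 873 bases apart and had 29.2 in 3xTg and 12.5 in WT. Wbp4/Elf1, a splicing factor and an ETS transcription factor, had 29.0 and 13.6. Brca1/Nbr1, a DNA repair gene and an autophagy receptor gene whose starts were 152 bases apart (peak chr11:101551645-101553485), had 27.9 and 9.73. The ratio of these values, 2.87, was the highest of the 175 shared members, whose median was 1.65. Nedd8/Gmpr2, a ubiquitin-like modifier and a purine enzyme, had 26.7 and 12.9. Chpf/Tmem198 had 26.3 and 14.8, and Chpf takes part in chondroitin synthesis. All 10 of the highest members had a WT peak.

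**Figure D2:**
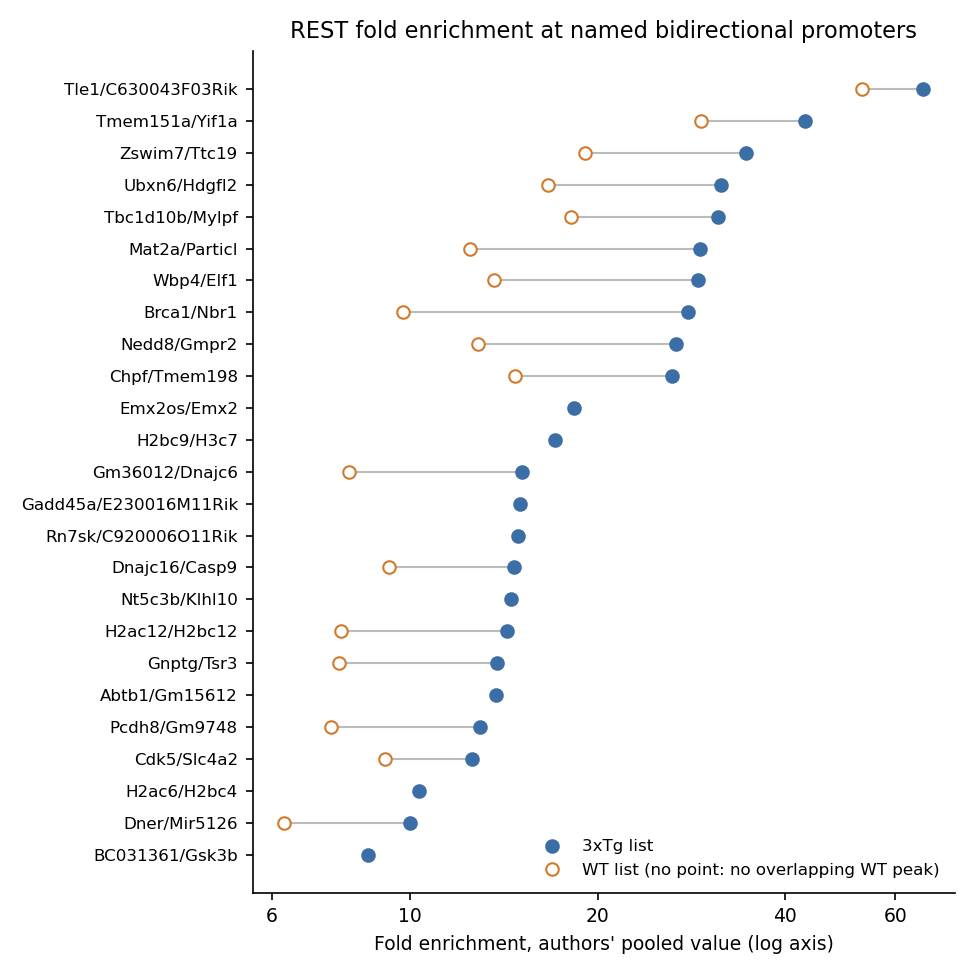
Fold enrichment on a log axis at 25 named bidirectional promoters, with the 3xTg value as a filled blue point and the WT value, where a WT peak overlapped, as an open orange point. Every WT point shown lies to the left of its 3xTg point, from 53.1 against 66.5 at Tle1 to 6.29 against 10.01 at Dner.

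The highest members with no WT peak were lower than these. Emx2os/Emx2 on chromosome 19 (chr19:59457685-59458967) led with 18.3, its starts 55 bases apart and the nearest WT peak 627506 bases away, and Emx2 encodes a homeobox factor of cortical development. H2bc9/H3c7, a pair of histone genes, had 17.1, and Gadd45a/E230016M11Rik had 15.0. Gadd45a encodes a growth arrest and DNA damage response protein. Rn7sk/C920006O11Rik had 14.9 and Nt5c3b/Klhl10 had 14.5, with the summit of the latter 743 bases from the nearest start. The ranks of these 5 in the 3xTg list ran from 613 to 1137. Rn7sk has many near-identical copies in the genome, and how reads that match several copies were handled is not given in the sources used here.

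At the low end, Btf3/Gm9828 and Gm4285/Tpt1 both had 8.52 and H3c1/H1f1 had 8.54, none with an overlapping WT peak. Tpt1 had a WT peak of its own (fold enrichment 7.70) that ended 429 bases from the 3xTg peak, so this promoter carried a peak in each list without an overlap. Of the 151 members with no WT peak, 7 had a WT peak within 5 kb, and the median distance to the nearest was 118911 bases. The 3 widest members were Brd2/H2-DMa with 5037 bases, Dnajc16/Casp9 with 4460 bases and Mrps18b/Ppp1r10 with 3968 bases, and all 3 were in both lists. Brd2, a bromodomain gene, lay next to the major histocompatibility class II gene H2-DMa, with fold enrichments of 9.83 in 3xTg and 6.65 in WT.

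Of the 8 genes that the study names at its ChIP-seq results, 4 were at bidirectional promoters. Cdk5, a tau kinase gene, faced the anion exchanger gene Slc4a2 across 1668 bases and had 12.5 in 3xTg and 9.13 in WT (chr5:24423160-24425687). Gsk3b, another tau kinase gene, formed an overlapping pair with the noncoding BC031361, with starts 259 bases apart. It had 8.57 in 3xTg, rank 5009 of 5077, with no WT peak (chr16:38087521-38090032). Casp9, a caspase gene of apoptosis, faced Dnajc16 across 2968 bases and had 14.7 in 3xTg and 9.27 in WT, but the summit lay 205 bases from the Dnajc16 start and 2763 bases from that of Casp9. Gadd45a was described above. Cacng2 was at a unidirectional promoter peak, and the peaks that held the Foxo3 and Tle3 starts had summits 1356 and 1777 bases from them. No 3xTg peak held the start of Daxx. The paper assigned genes to peaks over a wider window. From its differential binding analysis it reported higher REST binding in 3xTg at Cdk5, Gsk3b, Gadd45a, Casp9, Foxo3 and Daxx. It also reported higher binding at Cdk5, Gsk3b and Daxx by ChIP-qPCR. The study chose the 8 genes with these samples, so their number here is no independent evidence about bidirectional promoters.

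A WT peak overlapped 175 of the 326 bidirectional peaks (53.7%, 48.3 to 59.0), against 49.0% of all 3xTg peaks, which is close. The 151 others (46.3%) compare with 51.0% of all 3xTg peaks. Of the unidirectional promoter peaks, 631 of 1230 (51.3%, 48.5 to 54.1) overlapped a WT peak, a difference of 2.38 percentage points (95% Newcombe interval −3.72 to 8.41) that is within counting error. With the unidirectional share weighted to the widths of the bidirectional peaks, it was 54.5% and the difference was −0.81 points. Within 5 equal groups by width, the bidirectional share was 66.3% of 160 in the widest and 34.1% of 44 in the middle group, and every interval of the difference included 0.

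The share with a WT peak followed height. In the lowest of 4 equal groups of members by fold enrichment (8.52 to 9.47), 22 of 82 (26.8%, 18.4 to 37.3) had a WT peak, and in the highest (13.7 to 66.5) 75 of 82 (91.5%, 83.4 to 95.8) did. All 3xTg peaks of the same heights had 19.0% and 92.9%. In the second group the shares were 33.7% for members and 26.4% for all peaks, and in the group above it 63.3% and 52.0%. The plot of overlap by height and by width shows the same climb for the 3 kinds of peak.

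**Figure D3:**
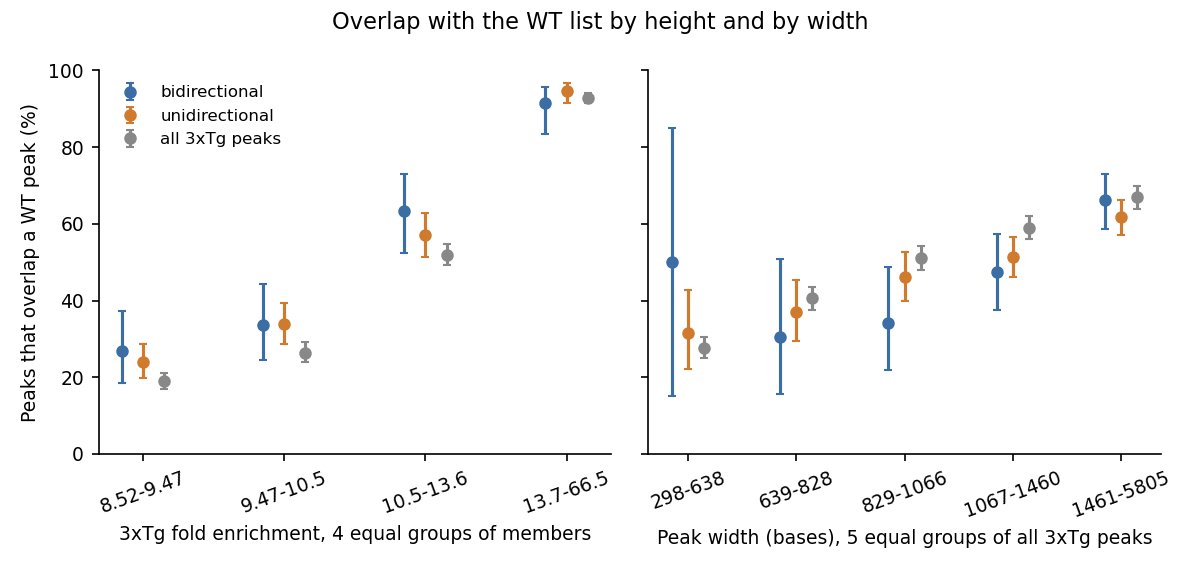
Percent of 3xTg peaks that overlap a WT peak, with 95% Wilson intervals, in 4 groups by fold enrichment (left) and 5 groups by width in bases (right), for bidirectional promoter peaks in blue, unidirectional in orange and all 3xTg peaks in grey. The share climbs with height from 26.8% to 91.5% for bidirectional peaks, and the intervals of bidirectional and unidirectional peaks overlap in every group.

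The lists stop at different heights. The lowest fold enrichment in the deposited lists was 8.50 in 3xTg and 6.003 in WT, and the lowest −log10 q was 29.0 and 13.3. At the 175 shared members the 3xTg value was higher than the WT value in 174, by a median ratio of 1.65 (middle 50% of ratios 1.48 to 1.85). The same held across the whole list, where it was higher in 2477 of 2489 shared 3xTg peaks by a median ratio of 1.70, so a higher value at a member says nothing particular to it. Of the 175 WT peaks, 116 (66.3%) had a fold enrichment under 8.50, a height that the 3xTg list does not reach. At these 116 the 3xTg value could only be the higher one. The count of 174 and the ratio of 1.65 are therefore set in part by the limits of the lists. The lowest WT value multiplied by the median ratio is 9.88, and 80 of the 151 members with no WT peak (53.0%) lay under it. The peaks were also wider in 3xTg at 173 of the 175, by a median ratio of 1.67, beside 1.65 for all shared peaks. Summits moved by 42 bases at the median between the lists, and the WT peak itself met the bidirectional rule at 165 of 175.

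**Figure D4:**
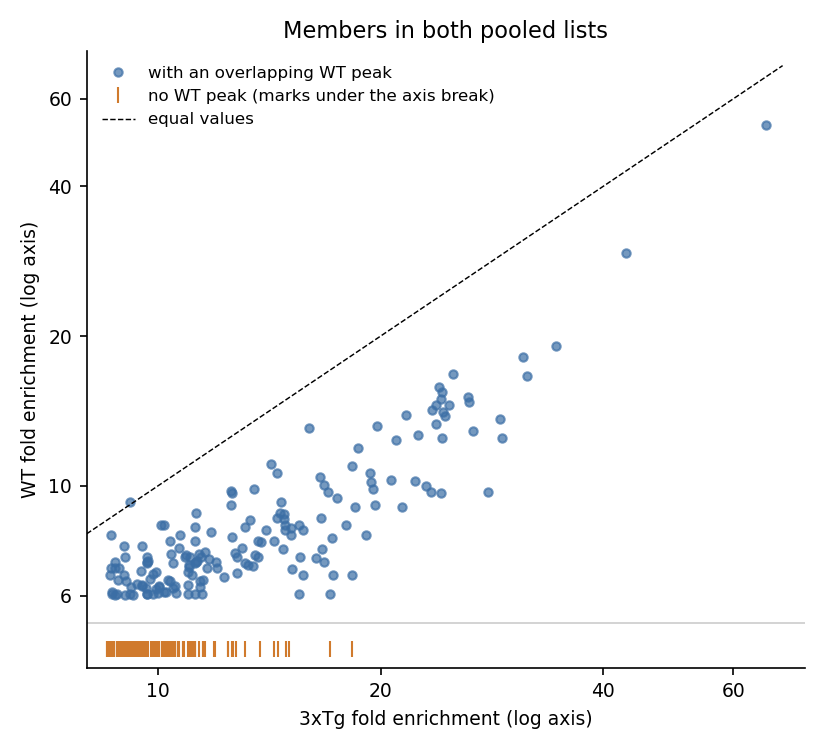
Fold enrichment of each bidirectional promoter peak in 3xTg (horizontal) and of its overlapping WT peak (vertical) on log axes, with the line of equal values dashed. Of the 175 shared members 174 lie below the line, and the 151 members without a WT peak, drawn as orange marks under the grey line, lie between 8.52 and 18.3. The different lowest heights of the lists set in part how many lie below the line.

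The shared members at the ends of the range were picked by the difference between their percentiles in the lists. The lists differ in length and in lowest height, and the percentile in 3xTg was higher by 7.54 points at the median of the 175 shared members and by 8.36 points at the median of all 2489 shared 3xTg peaks, so these differences choose members and do not measure a change in binding. The members whose 3xTg percentile exceeded the WT one by most had high ratios of fold enrichment as well, beside the median of 1.65. Abhd14a/Abhd14b, a pair of hydrolase genes, had 17.1 in 3xTg and 6.06 in WT, a ratio of 2.82. Hspb2/Cryab, a pair of small heat shock protein genes, had 15.5 and 6.06, a ratio of 2.56. Rbks/Babam2, a ribokinase and a DNA damage complex gene, had 18.3 and 6.62, a ratio of 2.76. At the other end the values were nearly equal in the lists. Tfb1m/1700102H20Rik had 8.63 in 3xTg and 7.94 in WT, a ratio of 1.09, and Tfb1m modifies mitochondrial ribosomal RNA. Setd3/Ccnk, with 9.15 and 9.27, was the only shared member whose fold enrichment was lower in 3xTg. Gm4013/Rbm27 had 8.98 and 7.56, a ratio of 1.19. These 6 were picked for their differences, and with 1 pooled value per genotype their replicate spread is unknown.

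The same rule applied to the WT list gave 231 peaks of 3006 (7.68%, 6.79 to 8.69), with a median fold enrichment of 7.01. A 3xTg peak overlapped 167 of them (72.3%, 66.2 to 77.7), against 83.3% of all WT peaks and 75.3% of unidirectional WT promoter peaks (72.3 to 78.0). Most of the 64 without one were low, 62 of them under 8.50. Of the 57 WT bidirectional peaks at or above 8.50, 55 (96.5%, 88.1 to 99.0) had a 3xTg peak. The exceptions, named after their values were seen, were Ddx5/Cep95 with 8.80, at a gene for an RNA helicase, and Ewsr1/Rhbdd3 with 8.51, at a gene for an RNA-binding protein.

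Histone genes had the highest share of their list at members among the lists of gene classes. Of 103 histone genes in the annotation, 23 (22.3%) had a start in a member, beside 2.53% of all genes (662 of 26180). They lay in 9 peaks, 8 on chromosome 13 and 1 on chromosome 3, and all 9 were head to head. Replication-dependent histone genes are clustered and often face each other across a short shared promoter, so this list is rich in bidirectional promoters to begin with. Of the 9, 2 had a WT peak (22.2%, beside 53.7% of all members), H2ac12/H2bc12 with 14.3 in 3xTg and 7.75 in WT, and H2ac11/H2bc11 with 9.84 and 6.05. After H2bc9/H3c7, the others with no WT peak were H2ac6/H2bc4 with 10.4, H2bc23/H2ac23 with 10.3, H2bc13/H2ac13 with 10.03, H2ac20/H2bc21 with 9.30, H2ac22/H2bc22 with 8.67 and H3c1/H1f1 with 8.54. These 6 had fold enrichments of at most 10.4, and in the groups up to 10.5 the share of members with a WT peak was 26.8% and 33.7%. The mismatch also ran the other way. In the WT list, the histone pairs H2bu1-ps/H2aw and H2ac24/H4bc24 met the same rule, each with 6.81, and had no 3xTg peak. Histone genes of a class are near-identical, and the part of reads that match several of them in these values was not tested.

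DNA repair and damage response genes were at 11 members, 8.21% of the 134 genes of that list, beside 2.53% of all genes. Bidirectional promoters tend to serve such genes, and how far this share reflects that was not tested. Besides Brca1 and Gadd45a, Rad9b/Vps29, at a checkpoint clamp gene, had 12.6 and no WT peak. Osgep/Apex1, at the gene for the main abasic site endonuclease, had 11.4 in 3xTg and 6.26 in WT, and Poll/Dpcd had 11.2 with no WT peak. Hscb/Chek2, at a checkpoint kinase gene, had 10.8 with no WT peak. Rpa3, which encodes a subunit of the single-stranded DNA binding complex, had 11.0 and a WT value of 6.94, while Rpa1 of the same complex had 9.35 and no WT peak. In all, 4 of the 11 were in both lists (36.4%, beside 53.7% of all members and 49.0% of all 3xTg peaks). With 11 peaks this share is uncertain, and no interval is given for it.

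Mitochondrial genes were at 13 members, 14 of 243 genes (5.76%, beside 2.53% of all genes), and 7 of the 13 were in both lists (53.8%, beside 53.7% of all members). The highest were Mrpl18/Tcp1, a mitochondrial ribosomal protein and a chaperonin subunit, with 24.3 in 3xTg and 14.1 in WT, Uqcrh/Lrrc41 of respiratory complex III with 22.5 and 12.7, and Ndufs1/Eef1b2 of complex I with 16.6 and 8.62. Hspd1/Hspe1, the chaperonin genes of the matrix, had 11.4 and 6.43. Translation and RNA genes were at 22 members (22 of 375 genes, 5.87%), 13 of them in both lists (59.1%), led by Ints6/4931440J10Rik with 17.95 and 8.32 and Ears2/Ubfd1 with 16.7 and 7.01. The list of cell cycle, centrosome and cilium genes, which also takes in the Ccdc, Ttc and Wdr symbol families whatever their function, had 28 of 551 genes (5.08%) at 27 members, 18 in both lists (66.7%). After Zswim7/Ttc19 these were led by Orc5/6030443J06Rik, at an origin recognition gene, with 26.3 and 15.1, and Mmachc/Ccdc163, at a vitamin B12 metabolism gene, with 24.7 and 14.5. In these lists too, genes with an opposite-strand start were not counted, so REST binding and gene arrangement cannot be told apart.

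The ubiquitin and autophagy list had 13 of 458 genes (2.84%) at 12 members, beside 2.53% of all genes. Of these 12 members, 3 were in both lists (25%, beside 53.7% of all members and 49.0% of all 3xTg peaks). Their median fold enrichment was 9.79, and in the groups up to 10.5 the share of members with a WT peak was 26.8% and 33.7%. Psd/Fbxl15 had 17.2 and 7.84, and Atg12/Ap3s1 had 12.4 with no WT peak. Zinc finger genes were at the level of all genes, with 13 of 523 (2.49%) at 11 members, led by Zfp277/Dock4 with 19.5 in 3xTg and 9.83 in WT and Zfp408/Arhgap1 with 14.5 and 8.62. Zfp608/Gm4221 had 12.6 with no WT peak.

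Neuronal gene classes had smaller shares at members than the 2.53% of all genes. The number of genes in these lists with an opposite-strand start was not counted, so REST binding and gene arrangement cannot be told apart. Of 332 ion channel, receptor and synaptic genes, 2 (0.602%) had a start at a bidirectional peak. At unidirectional promoter peaks it was 30, and the share of all genes at those peaks is not given here. Scn1a/Gm13629, at the gene of a neuronal sodium channel, had 15.7 in 3xTg and 6.62 in WT, and Kcnab2/Nphp4, at a potassium channel subunit gene, had 9.47 with no WT peak. Of 277 developmental and neural transcription regulators, 3 (1.08%) were at members. Beside Tle1 and Emx2 this was 0610040F04Rik/Bhlhe40, with 8.80 and its nearest WT peak 344 bases away. Of 1193 microRNA genes, 9 (0.754%, beside 2.53% of all genes) were at a member. They were led by Mir1900/Icam5 with 23.0 and 9.98 and Gm26536/Mir8098 with 20.6 and 10.3.

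The RE1 element was less common near these summits than near those of unidirectional peaks. Its core, CAGCACC and, 2 bases on, GGACAG, with at most 2 mismatches of the 13 letters on either strand, lay within 100 bases of the summit in 7 of 326 members (2.15%, 1.04 to 4.37), against 4.27% of all 3xTg peaks. Unidirectional promoter peaks had it in 60 of 1230 (4.88%, 3.81 to 6.23), a difference of −2.73 points (−4.47 to −0.27). This order held near the summit and not over the whole peak, where the core lay in 40 of 326 members (12.3%, 9.14 to 16.3), 146 of 1230 unidirectional peaks (11.9%, 10.2 to 13.8) and 474 of all 5077 3xTg peaks (9.34%, 8.57 to 10.2). The difference from unidirectional peaks was then 0.40 points (−3.27 to 4.75), and wider peaks hold more DNA to search. Of the 7 members, 6 were in both lists, and 4 were among the 54 pairs with overlapping starts while 3 were among the 272 head-to-head pairs. The best 5 cores are shown because they are the members whose summit DNA most resembled RE1. Capitals mark letters equal to the core, and each is read 5′ to 3′ on the strand of the match.
Gm36012/Dnajc6, chr4:101550836-101550850, plus strand: CAGCACCacGGACAG
Pcdh8/Gm9748, chr14:79769866-79769880, minus strand: CAGCACCtcGGACAG
Gnptg/Tsr3, chr17:25239738-25239752, plus strand: CAGCACCtcGGcCAG
Dner/Mir5126, chr1:84696355-84696369, minus strand: CAGCACCaaGGACAa
Abtb1/Gm15612, chr6:88842233-88842247, plus strand: CAGCACCtcccACAG

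The cores with no mismatch were at Dnajc6, which encodes neuronal auxilin of clathrin uncoating, with its center 18 bases from the summit and fold enrichments of 15.1 in 3xTg and 7.97 in WT, and at Pcdh8, a protocadherin gene, 11 bases from the summit with 12.97 and 7.48. Dner, at a gene for a neuronal receptor with EGF-like repeats, had 1 mismatch and values of 10.01 and 6.29. Gnptg/Tsr3, the only head-to-head pair with 1 mismatch, had 13.8 and 7.69. Abtb1/Gm15612, with 2 mismatches, had 13.7 and no WT peak. None of the 10 highest members had a core within 2 mismatches near the summit, where the closest was Chpf/Tmem198 with 3.

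Around the summits the DNA was that of CpG-rich promoters. In 300 bases centered on the summit, bidirectional peaks were 59.3% GC at the median (58.0 to 60.3) with an observed to expected CpG ratio of 0.777 (0.756 to 0.810), and unidirectional promoter peaks 57.7% with 0.731 (0.718 to 0.751). Peaks away from starts were 44.3% GC. SP/KLF boxes were in 59.2% of bidirectional peaks (53.8 to 64.4), NF-Y boxes in 42.0% (36.8 to 47.5), CRE cores in 37.7% (32.6 to 43.1), ETS letters in 23.3% (19.0 to 28.2), YY1 letters in 18.1% (14.3 to 22.6), TATA boxes in 3.99% (2.35 to 6.70) and NRF1 letters in 3.68% (2.12 to 6.32). Against unidirectional peaks, the ETS share was higher by 5.18 points (0.36 to 10.5), and the intervals of the other 6 differences included 0. Among the 32851 promoters of the RefSeq table, which are 300 bases long but placed by the start and not by a summit, the shares were 35.7% for SP/KLF, 37.4% for NF-Y, 20.8% for CRE, 8.86% for ETS, 8.93% for YY1, 13.6% for TATA and 3.91% for NRF1. The motifs were searched on both strands, matches of different motifs may overlap at their ends, and a match is a string of letters and not a shown binding site.

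Members with and without a WT peak had alike base composition, with a median GC of 59.0% and 59.7%, but differed in 2 motifs. YY1 letters were in 39 of the 151 without a WT peak (25.8%, 19.5 to 33.3) and in 20 of the 175 with one (11.4%, 7.52 to 17.0), a difference of 14.4 points (5.98 to 22.9). ETS letters were in 44 (29.1%) and 32 (18.3%), a difference of 10.9 points (1.63 to 20.04). The unidirectional peaks differed in the same direction by 6.34 points for YY1 (2.29 to 10.4) and 4.36 points for ETS (0.05 to 8.68). In members up to the median fold enrichment, YY1 letters were in 33 of 115 without a WT peak (28.7%, 21.2 to 37.5). With a WT peak they were in 7 of 50 (14%, 6.95 to 26.2). Above the median they were in 6 of 36 (16.7%, 7.87 to 31.9) and 13 of 125 (10.4%, 6.18 to 17.0). Within each height group these intervals overlap. Up to the median, ETS letters were in 28.7% of members without a WT peak and 22% of those with one. Above the median they were in 30.6% and 16.8%, and the ETS intervals also overlap within each height group. For the RE1 core the order was opposite, 1 of 151 and 6 of 175, a difference of −2.77 points (−6.65 to 0.75) among members and −6.25 points (−8.74 to −3.94) among unidirectional peaks. These intervals cover counting error only and are not adjusted for the 8 motifs compared.

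**Figure D5:**
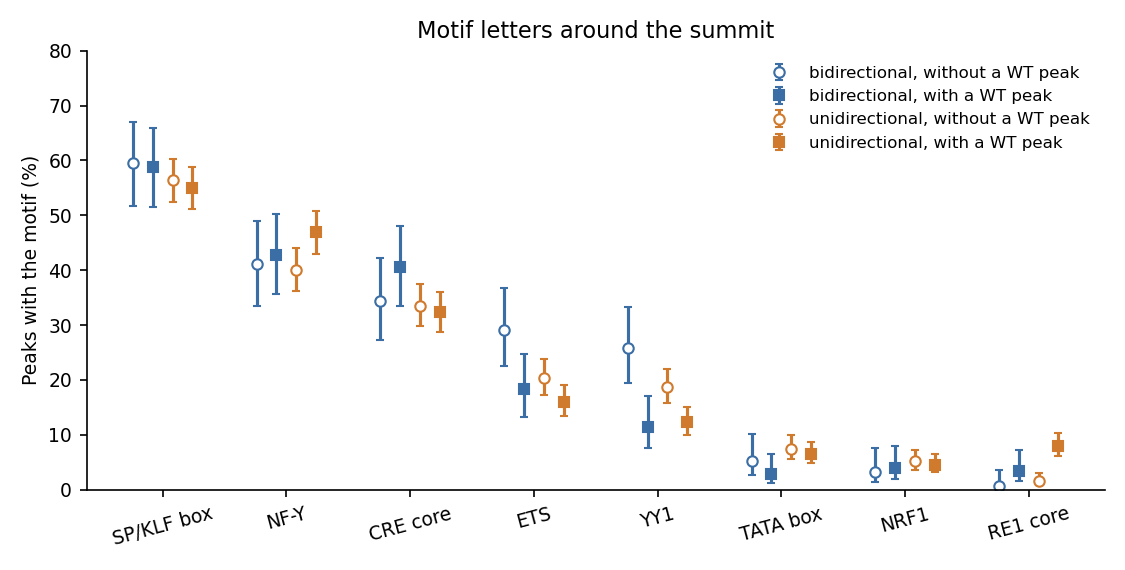
Percent of promoter peaks with each motif, with 95% Wilson intervals, in 300 bases centered on the summit (RE1 core within 100 bases of it), for bidirectional peaks in blue and unidirectional in orange, open circles without and filled squares with a WT peak. YY1 letters were in 25.8% of bidirectional peaks without a WT peak and 11.4% of those with one, and SP/KLF boxes in 59.6% and 58.9%.

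At the limit of the rule, the summits of Mir1900/Icam5 and Nudt6/Spata5 were 953 and 952 bases from the nearest start, with fold enrichments of 23.0 and 11.4. Just outside it were a second peak at Wrap53/Trp53, 1017 bases from the nearest start with a fold enrichment of 11.0, and a peak at Mapk4/Gm9925, 1071 bases away with 11.7.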

How the data were processed

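REST ChIP-seq libraries of WT and 3xTg cortex were sequenced as single-end reads by the authors, aligned to mm10 and passed to MACS for peak calling without its shift model. The methods name STAR 2.7.0a as the aligner, while the labels of part of the samples name BWA. Limits of 5 on fold enrichment and 0.01 on q are given in the authors' methods, with blacklisted regions removed, and each deposited peak met both limits. Each deposited list pools the 4 replicates of a genotype and gives, per peak, a score, a fold enrichment (a ratio), the −log10 p-value and −log10 q-value and the summit offset, all as the authors' pooled values. The score and the p-values served no result, and the input libraries entered through the authors' peak calls. Peaks on chromosome Y (9 in 3xTg, 4 in WT) were left out.

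Start sites were those of 45756 curated (NM and NR) RefSeq transcripts of GRCm38.p6, the assembly of mm10. Peaks were classed, overlapped and searched for motifs with Python 3.11.15, numpy 2.4.6, pandas 2.3.3, scipy 1.17.1 and pysam 0.24.0, and the programs were tested on simulated data. Shares carry 95% Wilson intervals, medians order-statistic intervals and differences of shares Newcombe intervals over peaks. All cover counting error over peaks and not the spread between mice. No significance test was made, since each genotype has 1 list.

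The members and the gene lists were chosen with earlier results of these data known, and gene lists are sets of symbol patterns. Named were the 10 highest members, the 5 highest without a WT peak, the 3 lowest, the 3 widest, members at the 8 study genes, the 3 highest per gene list, the 5 with the fewest RE1 mismatches, the 3 shared members with the most positive and the 3 with the most negative difference of percentiles between the lists (3xTg minus WT), and peaks nearest the 1 kb limit. Other names were chosen after their values were seen. One member that this rule names is not reported here. Sequence between starts is printed for 7 of the first 8 named head-to-head pairs 20 to 300 bases apart. Alternatives changed the start site distance and window, the transcripts, limits on fold enrichment and q, the list length, the overlap, chromosome Y and the RE1 search. Leaving out small RNA genes and a limit of 10 on the 3xTg list alone were added after seeing the data.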

Additional observations from a re-analysis of the deposited data

How the results depend on the processing

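Because each list pools its replicates, no replicate could be left out and no replicate spread exists. No paired analysis was possible because the lists carry no replicate columns. A limit of 10 on fold enrichment in both lists left 204 bidirectional peaks in 3xTg and 33 in WT, with a median of 12.5 and 17.6% shared. The same limit on the 3xTg list alone gave 67.2% shared. As many of the highest 3xTg peaks as there are WT peaks held 191 members, with a median of 12.7 and 69.6% shared. Requiring 50% of each peak to overlap left 35% shared. With NM transcripts alone there were 207 members in 3xTg and 141 in WT, 90.8% head to head. The RE1 core was near 10.4% of summits with at most 3 mismatches, and in 12.3% of members when the whole peak was searched. The difference in sharing from unidirectional peaks stayed within −2.66 and 2.46 points under every alternative run, inside its main interval. Both starts within 1 kb of the summit left 290 members, 500 bases to the start 303, and leaving out small RNA genes 316. A q under 1e-05 and keeping chromosome Y left 326. Under these 5, the share with a WT peak stayed inside its main interval. Without small RNA genes, only the number of members, this share and its difference from unidirectional peaks were computed.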
